A study of Mus musculus with 65 samples.

Results

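Elk4, Dek, Cstb, Shisa5 and Ik were followed in single long-term haematopoietic stem cells of old mice. They are 5 of the 18036 gene identifiers in the deposited table, found there by their NCBI gene numbers (13714, 110052, 13014, 66940 and 24010), and all 5 are among the 3444 genes with a count in at least 10 cells. The genes were chosen on measured values, selected on how often they were detected and at what level in these same cells. The difference between the groups in them is therefore given below as a description, with no test. The 37 aLR-HSC were GFP-positive, label-retaining cells and the 28 anLR-HSC were GFP-negative, non-label-retaining cells. Both came from the flushed marrow of SCL-tTAxH2B-GFP double heterozygous mice older than 20 months and had the same surface phenotype (lineage-depleted LSK, CD34-/low, Flk2-, CD48- and CD150+). In such mice the transactivator under the SCL promoter drives a histone-GFP fusion, and once the label is no longer made each division dilutes it. GFP therefore reads out label dilution only in cells in which that promoter was active. All cells of both groups were kept overnight at 3% O2, with no growth factor added, before their polyadenylated RNA was amplified with SMART-Seq v4 and made into Nextera XT libraries. The 4 biological repeats gave 9, 9, 10 and 9 aLR-HSC and 8, 4, 6 and 10 anLR-HSC. The number of mice in a repeat is not given in the labels, and the repeat, not the cell, was the unit of comparison.

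The 5 genes belong to no common pathway. Elk4 encodes a ternary complex factor, an ETS-family protein that binds DNA together with serum response factor and passes signals from MAP kinases to immediate early genes. Dek encodes a chromatin protein that binds DNA and histones, and its human counterpart is fused to the nucleoporin gene NUP214 in a subset of acute myeloid leukaemias. Cstb encodes cystatin B, an inhibitor of lysosomal cysteine proteases of the cathepsin family, and loss of the human gene causes a progressive myoclonus epilepsy. Shisa5, also called scotin, encodes a membrane protein of the endoplasmic reticulum that p53 induces and that can promote apoptosis. Ik encodes the RED protein, a component of the spliceosome at the stage before its activation.

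Sequence just upstream of the start was at hand for 3 of the genes. It is shown because Elk4 is itself a member of the ETS family, whose proteins bind a GGAA core, and capitals mark the letters CCGGAA, searched on both strands. The windows are from RefSeq for GRCm38.p6, read 5′ to 3′ on the strand of the gene, and each is the outermost one listed. Those of Elk4 and Shisa5 are kept up to the last base before the earlier of the RefSeq and GENCODE gene starts, and that of Dek lies before its GENCODE start. The Elk4 gene spans bases 132007577 to 132026448 of chromosome 1 on the plus strand, and its window is chr1:132007370-132007576. Dek spans bases 47084767 to 47107530 of chromosome 13 on the minus strand, and its window, chr13:47106222-47106471, lies inside this RefSeq span, which is wider than the GENCODE gene model. Shisa5 spans bases 109038567 to 109057792 of chromosome 9 on the plus strand, with the window chr9:109038317-109038564.
Elk4: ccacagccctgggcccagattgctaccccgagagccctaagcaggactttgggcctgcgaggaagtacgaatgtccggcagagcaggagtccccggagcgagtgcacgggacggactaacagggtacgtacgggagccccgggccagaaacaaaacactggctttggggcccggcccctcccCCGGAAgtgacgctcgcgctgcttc
Dek: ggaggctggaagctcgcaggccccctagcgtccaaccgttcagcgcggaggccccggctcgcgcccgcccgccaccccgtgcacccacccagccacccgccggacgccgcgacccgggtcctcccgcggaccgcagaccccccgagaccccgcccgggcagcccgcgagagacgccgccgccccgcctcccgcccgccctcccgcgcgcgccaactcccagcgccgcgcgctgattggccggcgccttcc
Shisa5: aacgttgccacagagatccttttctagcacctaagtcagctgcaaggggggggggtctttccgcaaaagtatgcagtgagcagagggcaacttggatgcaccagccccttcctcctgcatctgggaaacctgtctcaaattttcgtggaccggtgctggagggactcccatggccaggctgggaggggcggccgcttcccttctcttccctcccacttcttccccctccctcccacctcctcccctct
The Elk4 window holds the letters CCGGAA 1 time, close to its 3′ end, and the Dek and Shisa5 windows do not hold them. The shorter core GGAA is in all 3 windows, so this contrast concerns CCGGAA only. Among 32851 windows of 250 bases before RefSeq starts, 3952 (12.0%) hold CCGGAA and 945 (2.88%) the longer CCGGAAGT, which covers the same place and is also in the Elk4 window. The printed Elk4 and Shisa5 windows are shorter than these, at 207 and 248 bases. A match describes letters and not a binding site, and a window with no match says only that these letters are not in it.

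Depth and content differed widely between libraries. Totals of rounded counts ran from 27989 to 20516191 per aLR-HSC (median 264922) and from 88 to 661124 per anLR-HSC (median 118114). Each cell was therefore also thinned to 10000 counts, which left out 4 anLR-HSC and no aLR-HSC. After thinning, 147 to 1768 genes had a count in an aLR-HSC (median 845) and 151 to 1424 in an anLR-HSC (median 358), so the cells of the groups differed in the number of genes seen at equal depth. The share of counts taken by the 10 highest genes of a cell had a median of 28.2% in aLR-HSC and 42.9% in anLR-HSC. All 65 libraries carried the same run and lane label, and no index pair was shared (0 libraries). Some libraries nevertheless stood close to each other. Over 61 libraries and 3444 genes the median correlation of log2(CPM + 1), where CPM is a count scaled to 1000000 counts per cell, was 0.25 for all pairs, and 4 pairs were above 0.9. These were aLR-HSC cells 20 and 21 (0.97), 21 and 22 (0.93) and 20 and 22 (0.93), all of repeat 3, and aLR-HSC cell 3 with anLR-HSC cell 3 (0.91), both of repeat 1. The most alike library was a neighbour in the numbering of the indices for 45 of 60 libraries, and the median correlation within a group and repeat was 0.48 for 49 neighbouring pairs and 0.34 for 171 other pairs. Why these libraries are alike was not tested.

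All 5 genes were detected in most label-retaining cells and in a minority of the others. A gene counted as detected in a cell when its rounded count was at least 1. In aLR-HSC, Elk4 and Shisa5 were detected in 32 of 37 cells (86.5%, exact Clopper-Pearson 95% interval 71.2 to 95.5%), Dek and Cstb in 30 (81.1%, 64.8 to 92.0%) and Ik in 28 (75.7%, 58.8 to 88.2%). In anLR-HSC, Elk4, Cstb and Shisa5 were detected in 9 of 28 cells (32.1%, 15.9 to 52.4%), Ik in 8 (28.6%, 13.2 to 48.7%) and Dek in 7 (25.0%, 10.7 to 44.9%). These intervals cover counting of cells only and not the spread between repeats. The detection share was higher in aLR-HSC than in anLR-HSC of the same repeat for 5 of 5 genes in 4 of 4 repeats, against 29.1% of the 3444 genes. Every aLR-HSC repeat lay above every anLR-HSC repeat for 2 of the 5 genes, Cstb and Shisa5, against 8.13% of the 3444. Both shares are given as background only, since the genes were picked on this contrast. Detection was higher in aLR-HSC for most other genes too, 3220 of the 3444 (93.5%) as deposited and 2593 (75.3%) after thinning.

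**Figure D1:**
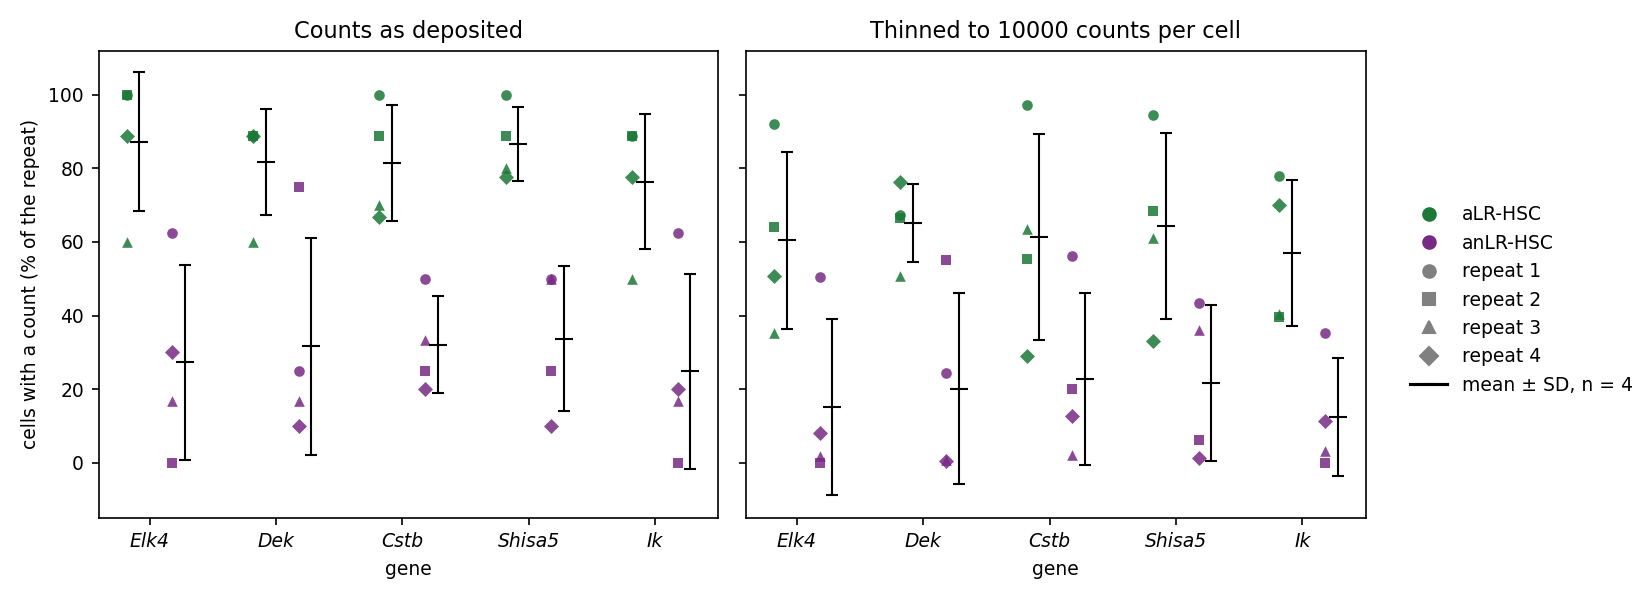
Share of cells in a repeat in which each gene was detected (vertical axis, percent of cells), as deposited on the left and as the expected share after thinning to 10000 counts on the right, with aLR-HSC in green, anLR-HSC in purple, 1 symbol for each repeat and bars for the mean ± SD of 4 repeats. As deposited, the aLR-HSC repeats sit between 50 and 100% and the anLR-HSC repeats between 0 and 75.0%. The highest anLR-HSC point is Dek in repeat 2, followed by Elk4 and Ik in repeat 1 at 62.5%. Each of these lies above the lowest aLR-HSC repeat of its gene.

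Elk4, the ternary complex factor, had the widest gap in detection of the 5 at 1 count averaged over repeats, though not at 10 counts, where the differences were 59.3 points for Elk4, 61.5 for Dek and 62.2 for Ik, or with cells pooled, where they were 54.3 points for Elk4 and 56.1 for Dek. In cells with at least 500 genes after thinning, a filter chosen after seeing the data, its gap was the smallest of the 5, at 29.8 points. It was detected in 100, 100, 60.0 and 88.9% of aLR-HSC in repeats 1 to 4, against 62.5, 0, 16.7 and 30.0% of anLR-HSC. Repeat 3 was lowest among aLR-HSC and just under the highest anLR-HSC repeat, so the groups overlapped by this 1 value. The means were 87.2 ± 18.9% in aLR-HSC and 27.3 ± 26.5% in anLR-HSC (SD, n = 4 repeats each), and the difference within repeats averaged 59.9 ± 28.2 percentage points. The 0 of 4 cells of anLR-HSC repeat 2 allows a share of up to 75.0%. Detected cells differed in how much they held. Across aLR-HSC the count ranged from 7 to 16808 (median 1082) in repeat 1, from 4 to 6809 (median 71) in repeat 2, from 0 to 251 (median 2.5) in repeat 3 and from 0 to 1039 (median 2) in repeat 4. Across anLR-HSC the highest count was 327 in repeat 1, 0 in repeat 2, 1 in repeat 3 and 5 in repeat 4. The 327 counts were in anLR-HSC cell 3, the library close to aLR-HSC cell 3, which itself had the 16808, and they made up 90.8% of all Elk4 counts of the anLR-HSC. After thinning, the expected shares were 92.0, 64.0, 35.1 and 50.8% in aLR-HSC against 50.6, 0, 1.76 and 7.99% in anLR-HSC, a mean difference of 45.4 ± 13.1 points. The Elk4 level averaged 927, 1312, 87.7 and 466 CPM in aLR-HSC, against 273, 0, 1.76 and 6.55 CPM in anLR-HSC. Its highest value was 4500 CPM in aLR-HSC cell 15, the rank 63 gene of that cell. The gene overlaps the transcript Gm29103 on the same strand and Mfsd4a on the other, and the kit does not mark strand, so reads in the shared stretches cannot be told apart. Mfsd4a itself had a count in 31 aLR-HSC and 16 anLR-HSC.

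Dek was less separated between groups in repeat 2 than elsewhere. It was detected in 88.9, 88.9, 60.0 and 88.9% of aLR-HSC, against 25.0, 75.0, 16.7 and 10% of anLR-HSC, with means of 81.7 ± 14.4% in aLR-HSC and 31.7 ± 29.5% in anLR-HSC (SD, n = 4 repeats each). The difference averaged 50 ± 28.1 points. In anLR-HSC repeat 2 the 75.0% stands for 3 of 4 cells, in which the highest count was 14. The Dek count ranged from 0 to 5699 (median 274), 0 to 7583 (median 107), 0 to 2760 (median 16.5) and 0 to 403 (median 25) in aLR-HSC of repeats 1 to 4, and its highest values in anLR-HSC were 87, 14, 1 and 1. Medians were thus above 10 in every aLR-HSC repeat, which was not so for Elk4. After thinning, the expected shares were 67.4, 66.6, 50.8 and 76.2% in aLR-HSC and 24.3, 55.2, 0.590 and 0.441% in anLR-HSC, a difference of 45.1 ± 26.5 points. The Dek level averaged 226, 1784, 2410 and 330 CPM in aLR-HSC, against 45.1, 58.4, 0.590 and 0.353 CPM in anLR-HSC, so the groups did not overlap by level. A pair of cells carried much of it. Dek reached 23206 CPM in aLR-HSC cell 24, where it took 2.32% of all counts and ranked 4 among the genes of the cell, and 10870 CPM in aLR-HSC cell 18. Without cell 24 the mean of aLR-HSC repeat 3 was 99.5 CPM, against 2410 CPM with it. At its end Dek overlaps Kdm1b on the other strand, and reads there cannot be told apart.

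As deposited, Cstb showed no overlap between the groups and the smallest SD of the difference of the 5, which was not so after thinning. This short gene lies at bases 78425670 to 78427622 of chromosome 10 on the plus strand of mm10. Cells with a Cstb count made up 100, 88.9, 70.0 and 66.7% of aLR-HSC, against 50, 25.0, 33.3 and 20.0% of anLR-HSC. The means were 81.4 ± 15.8% in aLR-HSC and 32.1 ± 13.2% in anLR-HSC (SD, n = 4 repeats each), and the difference was 49.3 ± 11.3 points. Counts in aLR-HSC ranged from 6 to 23547 (median 3512) in repeat 1, 0 to 3803 (median 48) in repeat 2, 0 to 2113 (median 42.5) in repeat 3 and 0 to 170 (median 2) in repeat 4. The highest anLR-HSC counts were 331, 2, 1 and 85. All 9 aLR-HSC of repeat 1 held the transcript, 8 of them with at least 10 counts, and 1 anLR-HSC of repeat 4 held 85 of the 87 counts of that repeat. After thinning, the expected shares were 97.2, 55.4, 63.5 and 29.1% in aLR-HSC and 56.3, 19.9, 2.11 and 12.7% in anLR-HSC. The thinned groups overlapped, with aLR-HSC repeat 4 and repeat 2 below anLR-HSC repeat 1, and the difference was 38.6 ± 18.5 points. The Cstb level averaged 1732, 485, 1054 and 244 CPM in aLR-HSC, against 277, 18.3, 2.11 and 31.5 CPM in anLR-HSC. In aLR-HSC repeat 3 the 3 libraries that resemble each other, cells 20, 21 and 22, had 1279, 2113 and 1028 Cstb counts, the highest of the 5 genes in each.

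As deposited, Shisa5 was detected in as many label-retaining cells as Elk4 and with the narrowest range over their repeats, which after thinning was that of Dek. The shares were 100, 88.9, 80.0 and 77.8% in aLR-HSC, against 50, 25.0, 50 and 10% in anLR-HSC, with no overlap. They averaged 86.7 ± 10.1% in aLR-HSC and 33.8 ± 19.7% in anLR-HSC (SD, n = 4 repeats each), 52.9 ± 17.1 points apart. The count in aLR-HSC ranged from 16 to 33588 (median 3127) in repeat 1, 0 to 6630 (median 95) in repeat 2, 0 to 222 (median 28) in repeat 3 and 0 to 64 (median 3) in repeat 4, and the highest anLR-HSC counts were 594, 1, 52 and 3. In anLR-HSC repeat 3, 3 of 6 cells had at least 10 Shisa5 counts, and none had 10 counts of Elk4, Dek, Cstb or Ik (0 of 6, which allows a share of up to 50%). After thinning, the expected shares were 94.5, 68.4, 61.1 and 33.1% in aLR-HSC and 43.4, 6.09, 36.0 and 1.28% in anLR-HSC, a difference of 42.6 ± 17.1 points with overlap. The Shisa5 level averaged 1434, 1097, 198 and 72.2 CPM in aLR-HSC, against 319, 4.57, 79.7 and 1.06 CPM in anLR-HSC. The aLR-HSC level was thus higher in repeats 1 and 2, whose cells had median total counts of 1654585 and 697629, than in repeats 3 and 4, with 201312 and 165075. The part of depth in this was not tested.

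Ik was the least often detected of the 5 in label-retaining cells, and its mean level rested on a single cell. The gene is on the plus strand of mm10 chromosome 18, at bases 36744656 to 36757639. Its shares were 88.9, 88.9, 50 and 77.8% in aLR-HSC, against 62.5, 0, 16.7 and 20.0% in anLR-HSC, with means of 76.4 ± 18.4% in aLR-HSC and 24.8 ± 26.6% in anLR-HSC (SD, n = 4 repeats each). The difference was 51.6 ± 28.3 points. Counts in aLR-HSC ranged from 0 to 7712 (median 1367), 0 to 8211 (median 10), 0 to 91 (median 16) and 0 to 342 (median 25) in repeats 1 to 4, and the highest in anLR-HSC were 93, 0, 6 and 6. At 10 or more counts, 24 of the 37 aLR-HSC and 1 of the 28 anLR-HSC held Ik, the 1 being anLR-HSC cell 3. After thinning, the expected shares were 78.0, 39.6, 40.4 and 70.1% in aLR-HSC and 35.3, 0, 3.24 and 11.2% in anLR-HSC, a difference of 44.6 ± 9.82 points. Ik was the 1 gene of the 5 whose repeats did not overlap after thinning, against 4.59% of the 3444 genes. All 5 were still higher in aLR-HSC in 4 of 4 repeats, against 20.2% of the 3444. The Ik level averaged 7957, 428, 209 and 404 CPM in aLR-HSC, against 145, 0, 3.54 and 10.8 CPM in anLR-HSC. In aLR-HSC cell 2 it reached 67594 CPM from 3824 counts, 6.76% of that cell's counts and rank 3 among its genes. Without that cell the mean of aLR-HSC repeat 1 was 503 CPM and the mean of the 4 repeats was 386 ± 125 CPM, against 2249 ± 3807 CPM with it.

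**Figure D2:**
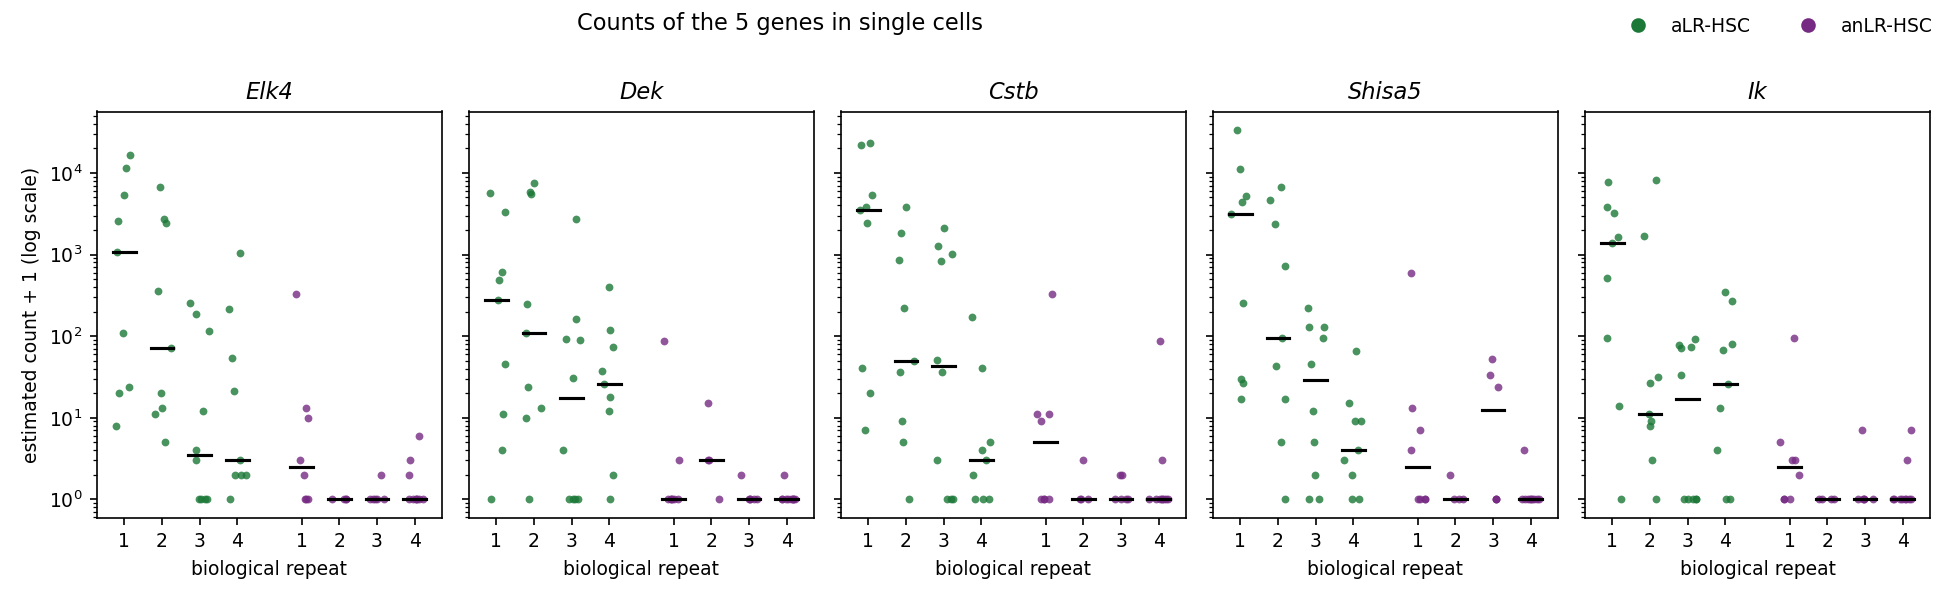
Estimated count plus 1 of each gene in every cell (vertical axis, log scale) by biological repeat (horizontal axis), with aLR-HSC in green at the left of each panel, anLR-HSC in purple at the right, and a bar at the median of the repeat. Points above 1000 counts are aLR-HSC in all 5 panels, the highest being 33588 for Shisa5, and the highest anLR-HSC count is 594.

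Counts of 1000 or more were seen in label-retaining cells and not in the others. At least 1000 counts were held by 9 aLR-HSC for Elk4, 6 for Dek, 11 for Cstb, 8 for Shisa5 and 7 for Ik, and by 0 of 28 anLR-HSC for each, which allows a share of up to 10.7%. Among cells that had the transcript at all, the median count in aLR-HSC was 62 for Elk4, 90.5 for Dek, 110.0 for Cstb, 54.5 for Shisa5 and 74 for Ik, against 2, 2, 8, 12 and 3 in anLR-HSC. Totals per cell differ as given above, so these counts are not at equal depth. On the CPM scale the level over the 4 repeats averaged 698 ± 534 in aLR-HSC and 70.3 ± 135 in anLR-HSC for Elk4, 1187 ± 1082 and 26.1 ± 30.1 for Dek, and 879 ± 662 and 82.2 ± 130 for Cstb. It averaged 700.3 ± 669 in aLR-HSC and 101 ± 150 in anLR-HSC for Shisa5 and 2249 ± 3807 and 39.9 ± 70.4 for Ik (SD, n = 4 repeats each). The SD of the aLR-HSC repeats was of the same order as their mean for all 5 genes. The level was higher in aLR-HSC in 4 of 4 repeats for 5 of 5 genes, against 22.6% of the 3444 genes, and without overlap for 2 of them, Dek and Ik, against 5.4%.

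Put per kilobase of annotated exon, so that the genes can be set beside each other, the mean level in aLR-HSC was highest for Cstb at 1457 ± 1098 CPM per kilobase. Ik followed at 1127 ± 1907, Dek at 465 ± 423, Shisa5 at 296 ± 282 and Elk4 at 150.4 ± 115 (SD, n = 4 repeats). In anLR-HSC the order was Cstb at 136 ± 216, Shisa5 at 42.6 ± 63.1, Ik at 20.0 ± 35.3, Elk4 at 15.1 ± 29.1 and Dek at 10.2 ± 11.8. No neighbours in either order were further apart than the larger of their SDs. The place of Ik in aLR-HSC rested on cell 2. With the cell of highest CPM left out for each gene, the aLR-HSC levels were 1202 ± 711 for Cstb, 261 ± 263 for Shisa5, 239 ± 308 for Dek, 193 ± 62.7 for Ik and 129 ± 86.7 CPM per kilobase for Elk4.

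Set among all genes with a count in at least 10 cells, the 5 stood at the upper end of the differences in detection. The median gene was detected in 43.1% of aLR-HSC and 22.9% of anLR-HSC, with a median difference of 19.4 points as deposited and 6.41 points after thinning. As deposited, 2 of the 3444 genes, Elk4 included, differed by as much as Elk4, 11 by as much as Shisa5, 14 as Ik, 24 as Dek and 36 as Cstb. After thinning these numbers were 4 for Elk4, 5 for Dek, 7 for Ik, 12 for Shisa5 and 27 for Cstb. These places follow from how the genes were selected and are a description.

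**Figure D3:**
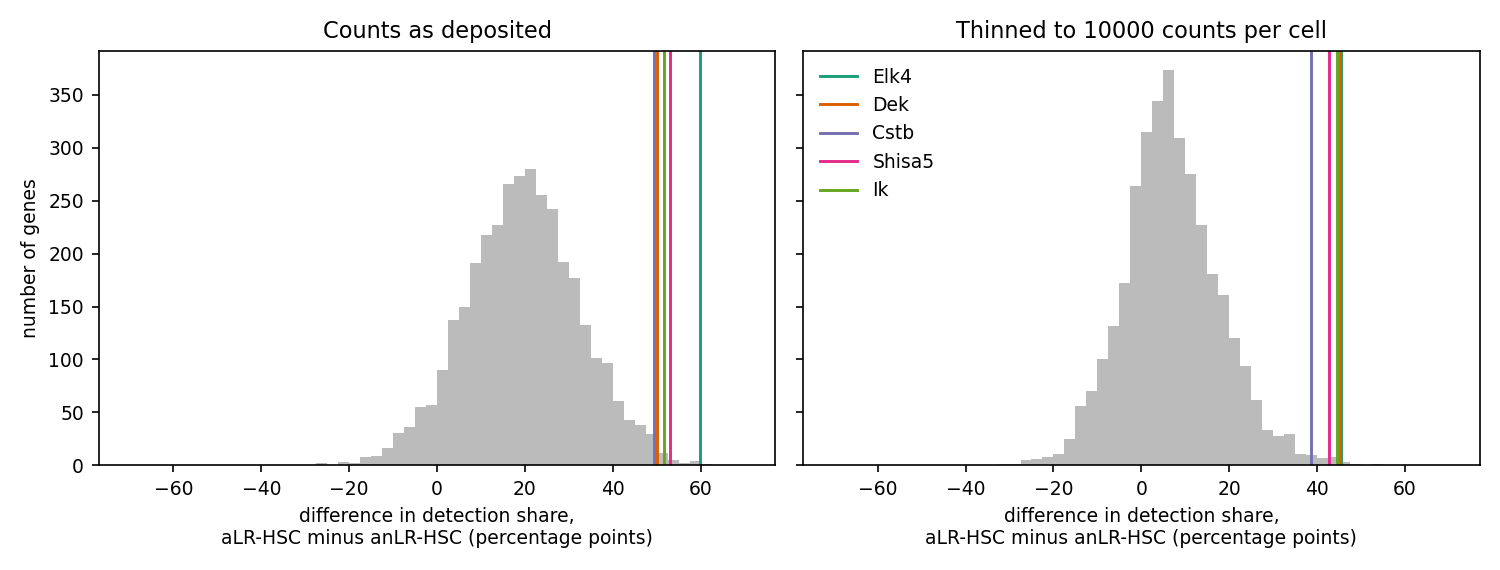
Number of genes (vertical axis) by the difference in detection share, aLR-HSC minus anLR-HSC in percentage points (horizontal axis), over 3444 genes, as deposited on the left and thinned to 10000 counts on the right, with a coloured line for each of the 5 genes. The lines lie between 49.3 and 59.9 points on the left and between 38.6 and 45.4 points on the right, at the upper end of both histograms.

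As deposited, the 5 transcripts were mostly found in the same label-retaining cells, which follows in part from each being detected in most of them. All 5 were detected in 24 of 37 aLR-HSC, 4 of them in 3 cells, 3 in 6 cells, 2 in 1 cell and none in 3 cells. Among anLR-HSC all 5 were detected in 2 of 28 cells, 4 in 1, 3 in 2, 2 in 7, 1 in 8 and none in 8. After thinning, all 5 were found together in 8 of 37 aLR-HSC and 2 of 24 anLR-HSC. An aLR-HSC held 4.78, 4.56, 3.20 and 4.00 of the genes on average in repeats 1 to 4, against 2.5, 1.25, 1.33 and 0.9 in an anLR-HSC, and the difference was 2.64 ± 0.679 genes (SD of 4 repeats). After thinning, the expected number was 4.29, 2.94, 2.51 and 2.59 in aLR-HSC and 2.10, 0.813, 0.437 and 0.336 in anLR-HSC. The difference in this expected number was 2.16 ± 0.0802 genes, nearly the same in each repeat, although the repeats themselves differed in both groups. In the 1 random draw used for co-detection the difference was 1.91 ± 0.31 genes, with a wider spread.

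**Figure D4:**
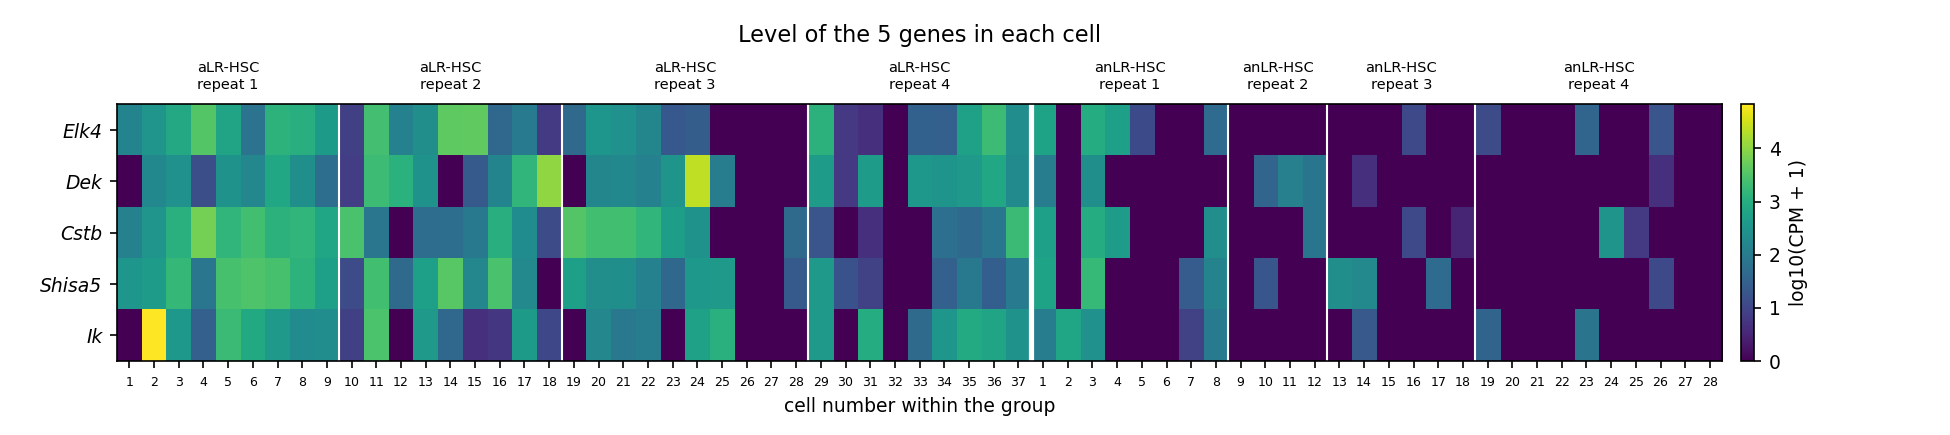
Level of the 5 genes (rows) in each of the 65 cells (columns, numbered within their group), as log10(CPM + 1) on the colour scale, with white lines between repeats and a thicker one between aLR-HSC on the left and anLR-HSC on the right. Most aLR-HSC columns are filled from top to bottom, 24 of 37 without a gap, against 2 of 28 anLR-HSC, and the brightest field is Ik in aLR-HSC cell 2.

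The exceptions in each group also stood apart in how many genes they showed. The 3 aLR-HSC with none of the 5 genes (cells 26, 27 and 32) had 147 to 256 genes after thinning, and in cell 27 haemoglobin transcripts took 92.0% of the counts. The 2 anLR-HSC with all 5 genes, cells 3 and 1, had 1424 and 1316 genes. Cell 3 had 327 Elk4, 87 Dek, 331 Cstb, 594 Shisa5 and 93 Ik counts and is the library that correlated with aLR-HSC cell 3 at 0.91. Cell 1 had 12, 2, 10, 12 and 2 counts of the same genes, and its closest library was aLR-HSC cell 8 (0.61). Of the counts summed over all anLR-HSC, cell 3 alone gave 90.8% for Elk4, 79.8% for Dek, 73.6% for Cstb, 81.8% for Shisa5 and 80.2% for Ik. With 1 library kept of each alike set, a choice made after seeing the data, the differences in detection were 58.8 points for Elk4, 50.2 for Dek, 49.2 for Cstb, 53.5 for Shisa5 and 49.8 for Ik, and that in genes per cell was 2.61. The differences in level were then 642 CPM for Elk4, 1310 for Dek, 767 for Cstb, 651 for Shisa5 and 2219 for Ik, against 628, 1161, 796.5, 599 and 2209 CPM with all libraries.

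How many of the 5 genes a cell showed went along with how many genes it showed in all. In thinned aLR-HSC the median number of genes was 256 in the 5 cells with none of the 5, 494 in 2 cells with 1, 573 in 6 cells with 2, 657 in 8 cells with 3, 1235 in 8 cells with 4 and 1285 in 8 cells with all. In thinned anLR-HSC it was 251 in 12 cells with none, 475 in 6 cells with 1, 1171 in 3 cells with 2, 613 in the 1 cell with 3 and 1370 in the 2 cells with all. At least 500 thinned genes were seen in 28 aLR-HSC and 8 anLR-HSC. Among these, Elk4 was detected in 27 aLR-HSC and 6 anLR-HSC, Dek in 25 and 4, Cstb in 27 and 5, Shisa5 in 27 and 3, and Ik in 25 and 4. Among the 9 aLR-HSC and 16 anLR-HSC below that number, Elk4 was detected in 5 and 3, Dek in 5 and 3, Cstb in 3 and 4, Shisa5 in 5 and 6, and Ik in 3 and 3. The part of this in the group difference was not tested.

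**Figure D5:**
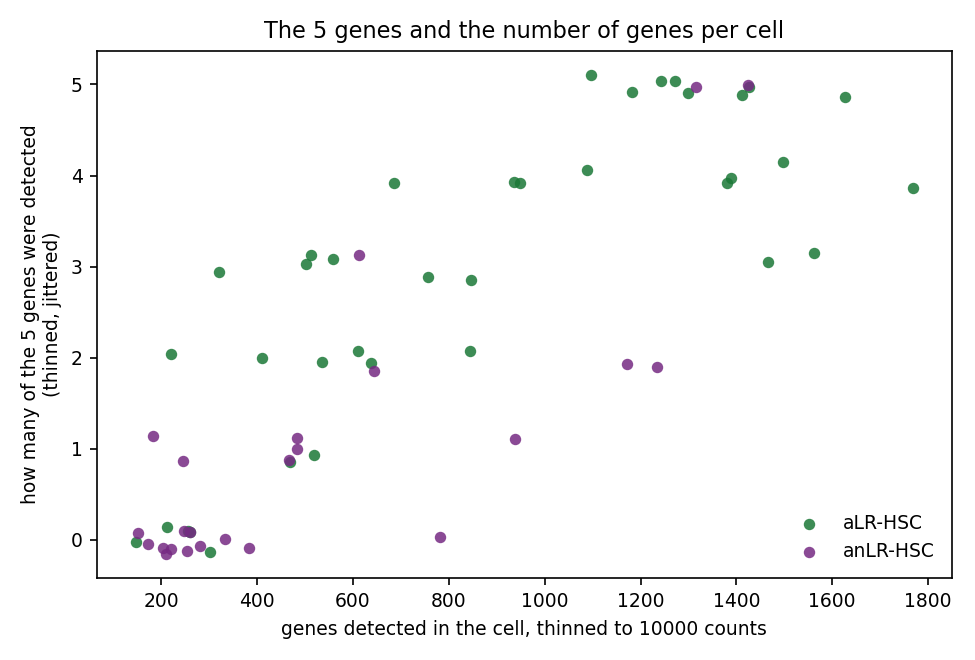
Number of the 5 genes detected in a cell (vertical axis, shifted slightly so that points do not hide each other) against the number of all genes detected in it (horizontal axis), both after thinning to 10000 counts, for 37 aLR-HSC in green and 24 anLR-HSC in purple. Cells with all 5 genes have at least 1097 genes in either group, and cells with none have at most 301 genes in aLR-HSC and 782 in anLR-HSC.

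In pairs, the genes shared between 26 and 30 of the 37 aLR-HSC and between 3 and 5 of the 28 anLR-HSC. The pair sharing most aLR-HSC was Elk4 and Shisa5, with both in 30 aLR-HSC and in 4 anLR-HSC, where 4 other pairs shared 5. After thinning, the overlap of a pair was measured as the cells with both over the cells with either. In aLR-HSC it was highest for Cstb with Shisa5 (19 cells with both, 0.704), Dek with Ik (17 cells, 0.680) and Elk4 with Shisa5 (19 cells, 0.679), and lowest for Cstb with Ik (12 cells, 0.429). Depth and genes per cell are shared by all genes of a cell, so these values carry no p. The cells shared by a pair also depend on how often each gene was detected, on which the genes were selected. The number that detection alone would give was not calculated, so the group difference in shared cells is not a separate result.

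Other genes overlapped with each of them more than they did with each other. Over 61 thinned cells and 1637 genes seen in at least 10 of them, the genes most like Elk4 were Rhoa (0.694), a small GTPase of the actin skeleton, Txnl4a (0.688), a splicing protein, and Myl6 (0.658), a myosin light chain, against a median of 0.321. Those most like Dek were Sat1 (0.618), an enzyme of polyamine breakdown, the mitochondrial chaperone Hspa9 (0.613) and Nop53 (0.611), a ribosome assembly factor, against a median of 0.313. Nop53 also came first for Cstb (0.706), before the non-coding host gene Gas5 (0.686) and Atp6v1f (0.677), a subunit of the proton pump of the lysosome, against a median of 0.333. The Shisa5 pattern was closest to Eif5a (0.710), a translation factor, Cxcr4 (0.700), a chemokine receptor involved in marrow retention, and the chaperone Hspa4 (0.694), against a median of 0.323. Ik was closest to Immt (0.655), a protein of the mitochondrial inner membrane, Ppil4 (0.655), a prolyl isomerase, and Rab1a (0.645), a GTPase of vesicle transport, against a median of 0.310. Among the 5 themselves, Dek stood at rank 6 for Ik and Ik at rank 10 for Dek, while Dek stood at rank 162 for Elk4 and Elk4 at rank 117 for Dek. These overlaps were taken over the cells of both groups together, and they depend on how often each gene was detected. The contrast between groups, on which the 5 were selected, therefore enters them. Its part was not tested.

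The other genes of each pathway are counted beside all 3444 genes, of which 93.5% had a higher mean detection share in aLR-HSC as deposited and 75.3% after thinning, with median differences of 19.4 and 6.41 points. Only 6786 of the 18036 identifiers in the table had a count in any cell, so a gene at 0 was common. The partners of Elk4 were other ETS factors, serum response factor with its cofactors, MAP kinases and target genes. The list held 26 symbols, some of them older names of the same gene. Of these, 7 were in the table and 5 had a count. Among the 5, 4 had a higher mean detection share in aLR-HSC and 1 in anLR-HSC, against 3 and 2 after thinning. The median difference was 16.3 points as deposited and 10.5 after thinning over these 5 genes. Elk3, another ternary complex factor, was detected in 21 aLR-HSC and 5 anLR-HSC and the ETS repressor Etv6 in 14 and 3. The kinase Mapk3 was the exception, with 12 and 11 cells. Of the immediate early genes on the list, Egr1 was in 7 aLR-HSC and 1 anLR-HSC and Fos in 6 and 2, while Fosb and Egr2 were at 0.

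For Dek the list held histone chaperones, kinases and the fusion partner, 25 genes of which 9 were in the table and all 9 had a count. Beside 93.5% of all 3444 genes, the share was higher in aLR-HSC for 8 of the 9 and in anLR-HSC for 1, H3f3b, which turned to aLR-HSC after thinning, with a median difference of 19.2 points as deposited and 17.2 after thinning, beside 19.4 and 6.41 for all genes. Unlike Dek, several of these were found in most cells of both groups. H3f3b, a gene of the replacement histone H3.3, was detected in 34 aLR-HSC and 27 anLR-HSC, the chromatin protein prothymosin alpha gene Ptma in 36 and 23, and the nucleolar chaperone gene Npm1 in 34 and 21. By mean level H3f3b, Ptma and Npm1 were lower in aLR-HSC. Their levels were 5156 against 7034 CPM, 2933 against 3846 CPM and 831 against 2782 CPM.

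Cathepsins, cystatins and lysosomal membrane proteins made up the list for Cstb. Of 21 genes 8 were in the table, and 5 were higher in aLR-HSC and 3 in anLR-HSC by detection share. The numbers were the same after thinning, but not the genes. Ctsd and Ctsl turned to aLR-HSC and Ctsc and Cst6 to anLR-HSC. Ctsw, with a count in only 1 anLR-HSC, stayed higher in anLR-HSC. The median difference was 1.63 points as deposited and 2.54 after thinning. Among all 3444 genes 93.5% were higher in aLR-HSC as deposited and 75.3% after thinning, with medians of 19.4 and 6.41 points. Ctsd, an aspartic protease that cystatin B does not inhibit, was in 34 aLR-HSC and all 28 anLR-HSC. The cysteine protease gene Ctsl was in 17 and 14, and Lamp1, of the lysosomal membrane, in 29 and 13.

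The list for Shisa5 was made of p53 pathway genes, interferon factors and the Shisa family. Of 28 genes 18 were in the table and 14 had a count, and all 14 had a higher share in aLR-HSC, beside 93.5% of all 3444 genes, with a median difference of 21.3 points as deposited, beside 19.4. After thinning 13 were higher in aLR-HSC and 1 in anLR-HSC, beside 75.3% of all genes, with a median of 9.51 points, beside 6.41. Gadd45a, a stress-induced growth arrest gene, was in 31 aLR-HSC and 21 anLR-HSC, the pro-apoptotic gene Bax in 21 and 7, and the p53 target Ccng1 in 20 and 7. Perp, another p53 target, and the relatives Shisa4, Shisa6 and Shisa7 were at 0 in every cell, as were most identifiers of the table.

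Of 27 listed symbols around Ik, 9 were in the table and all 9 had a count. The list held spliceosome proteins and the spindle checkpoint gene Mad1l1, and Snu13 stood in it under an older symbol too. The share was higher in aLR-HSC for 6 and in anLR-HSC for 3, in the same numbers after thinning, beside 93.5% and 75.3% of all 3444 genes in aLR-HSC. Mad1l1 was 1 of the 3, with a count in 2 aLR-HSC and 4 anLR-HSC. The median difference was 10.9 points as deposited and 11.7 after thinning, beside 19.4 and 6.41. Zmat2 was in 27 aLR-HSC and 23 anLR-HSC, the kinase gene Prpf4b in 30 and 15 and Txnl4a, also among the 3 genes most like Elk4, in 29 and 15. By mean level Prpf4b was lower in aLR-HSC, at 262.5 against 526 CPM. Zmat2 (2412 against 86.7 CPM) and Txnl4a (401 against 169 CPM) were higher. The lists were drawn up with earlier results of these cells known, and their counts are a description.

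The label of the cells was checked against markers. Of the 7 stem cell markers found, 6 had a count, led by Hlf (31 aLR-HSC and 12 anLR-HSC), Gata2 (24 and 10) and Meis1 (23 and 11), and Slamf1, which encodes the sort marker CD150, was at 0 in every cell. All 6 had a higher mean share in aLR-HSC, as deposited and after thinning, beside 93.5% and 75.3% of all 3444 genes, and for Fgd5 this rests on 1 cell in each group. By mean level Meis1 was lower in aLR-HSC, at 126.5 against 868 CPM. Hlf (695 against 555 CPM) and Gata2 (237 against 95.1 CPM) were higher. Among haemoglobin genes, Hba-a1 was in 36 aLR-HSC and 24 anLR-HSC, Hbb-bs in 31 and 24 and Hba-a2 in 12 and 14, and their summed share of counts had a median of 0.0185% and a highest value of 92.0% in aLR-HSC against 0.288% and 7.92% in anLR-HSC. After thinning, the 3 haemoglobin genes in the table were detected more often in anLR-HSC, by a median difference of -22.7 points. Defining markers of other blood cells were at 0 in every cell, including Mpo and Elane of neutrophils, Csf1r and Adgre1 of monocytes and macrophages, Ebf1 and Ighm of B cells, Cd4 and Nkg7 of T and NK cells and Fcer1a of mast cells. Of the stroma markers Cxcl12 and Col1a1 were at 0 as well, and Col1a2 was in 18 aLR-HSC and 11 anLR-HSC. Only 6786 of the 18036 identifiers in the table had any count, so being at 0 does not set these markers apart. The B cell list reached 1.60% of counts in 1 aLR-HSC, cell 16, and its highest value in anLR-HSC was 0.00177%. The part of these markers in the results above was not tested.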

How the data were processed

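The deposited table held estimated counts per gene and cell on mm10, and the authors used DESeq, per the submitters' processing notes. Which aligner, counter or annotation was used is not stated in the labels. The authors' deposited values are called normalized, but they were not scaled: totals per cell ran from 88 to 20516191, and a median of 72.5% of the values between 0.5 and 20 in a cell were whole within 0.0001. They were treated as estimated (expected) counts and rounded. Of 18036 identifiers 16216 matched a RefSeq symbol, and the others held 0.131% of counts. No column was left unused (0). CPM is the count per 1000000 counts of the cell in the table.

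The members and lists were chosen with earlier results of these data known, and no test was run on them. Shares and levels were averaged over the cells of a repeat and then over 4 repeats. Thinning to 10000 counts gave the expected share by the exact hypergeometric formula and, for co-detection, 1 random draw per cell (seed 1). Intervals are exact Clopper-Pearson at 95%, a count of 0 was read as at most 3 counts, and both cover counting error only. Amplified reads without molecular identifiers are not independent molecules. Named genes were the 5 members, the 3 with the highest overlap with each, and the 3 most often detected of each partner list, with ties broken by symbol. Other genes named were picked after their values were seen. Lists covered partners of each member and markers of stem, erythroid, neutrophil, monocyte and macrophage, B, T and NK, mast, megakaryocyte, endothelial and stromal cells. Alternatives were another detection minimum, depth, cell filter, weighting, level scale and repeats left out. The calculation of thinned shares was checked against random draws from the deposited counts of a single cell. The call of repeats without overlap was tried on simulated counts, with genes planted in every aLR-HSC and no anLR-HSC. Python 3.11.15, numpy 2.4.6, pandas 2.3.3, SciPy 1.17.1 and matplotlib 3.10.9 were used.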

Additional observations from a re-analysis of the deposited data

Results flagged for a closer look

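Among the 32 sets of 4 repeats looked at, 6 had a repeat far from the others by Dixon's ratio. The ratio marks about 1 in 20 sets of independent, normally spread values. These levels are skewed, the shares move in steps and the sets come from the same cells, so the 6 cannot be set against that rate. In aLR-HSC, Dek was detected in 60.0% of the cells of repeat 3, below the other repeats, and Ik averaged 7957 CPM in repeat 1, where cell 2 held 67594 CPM. The other repeats of Dek were tied at 88.9%, so any differing value would have been marked. The other 4 are all anLR-HSC repeat 1. Elk4 had an expected detection share of 50.6% after thinning there, and the levels were 273 CPM for Elk4, 277 CPM for Cstb and 145 CPM for Ik. Without the cell highest in CPM the levels of that repeat were 175 CPM for Elk4, 177 CPM for Cstb and 69.2 CPM for Ik. That cell was anLR-HSC cell 3 for Elk4 and Cstb, and cell 2, with 2 Ik counts among 2948 counts, for Ik.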

How the results depend on the processing

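No paired analysis was possible because the results come from no test into which the repeat could enter as a block, while the differences themselves are taken within repeats. No difference changed sign under the alternatives run. Of 95 alternatives for detection shares 92 moved the difference by less than the SD between repeats, as did all 19 for genes per cell and 1 of 5 for log2 levels, which shrank with a pseudocount of 10. All 75 for levels also stayed within that SD, which was of the same order as the differences or larger. With the median over cells the differences were 203 CPM for Elk4, 229 for Dek, 414 for Cstb, 419.5 for Shisa5 and 180.1 for Ik, and with summed counts 467 CPM for Ik. The 3 others were 62.6 points for Cstb when thinned to 50000 counts and, in cells with at least 500 genes after thinning (chosen after seeing the data, with no such anLR-HSC in repeat 3), 29.8 points for Elk4 and 76.4 points for Shisa5. Each repeat of each group was also left out in turn, from that group only, so these differences are between group means and not within repeats. They were 50.8 to 71.7 points for Elk4, 42.8 to 64.4 for Dek, 43.1 to 55.3 for Cstb, 45.0 to 58.3 for Shisa5, 43.3 to 64.2 for Ik and 2.42 to 2.97 genes per cell. Levels differed by 423 to 831 CPM for Elk4, 754 to 1482 for Dek, 512 to 1008 for Cstb, 355 to 809 for Shisa5 and 307 to 2890 for Ik, lowest without aLR-HSC repeat 1 for Cstb, Shisa5 and Ik, repeat 2 for Elk4 and repeat 3 for Dek. Without the cell highest in CPM, chosen after seeing the data, they were 584 CPM for Dek and 346 CPM for Ik. The number of genes whose repeats do not overlap was 280, with 309 at 1 cell, 185 at 20 cells and 158 after thinning. The cause was not tested. Repeats of 4 to 10 cells set each share in steps, and a value of 0 in 4 cells leaves shares up to 75.0% possible.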
